A study of Homo sapiens with 16 samples.

Results

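The RNA of 10 genes for subunits of the Polycomb complexes was followed through neural differentiation of human embryonic stem cells: EZH2, EZH1, EED, SUZ12, RBBP4, JARID2, MTF2, PHF19, RNF2 and BMI1. They were chosen by name from a count table of 57736 genes, and all 10 were among the 24249 genes that passed a filter on low counts. Polycomb group proteins act in a pair of complexes that keep developmental genes silent by marking histones. In Polycomb repressive complex 2 (PRC2), EZH2 or its paralog EZH1 methylates histone H3 at lysine 27, and needs EED, SUZ12 and RBBP4 to do so, while JARID2, MTF2 and PHF19 are accessory subunits that help bring the complex to its targets. In PRC1, RNF2 (also called RING1B) is the ubiquitin ligase that marks histone H2A, and BMI1 (also called PCGF4) is one of the PCGF proteins it pairs with. EZH2 is best known from dividing cells and stem cells, whereas EZH1 is also found in cells that have left the cell cycle, and EZH2 restrains neuronal genes in neural progenitors.

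The libraries came from H9, an established human embryonic stem cell line, so that 1 cell line carries all results. Cells were taken through neural differentiation with dual SMAD inhibition and collected on day 0 (D0, undifferentiated), D12, D30 and D70, either in 40 µM Thiamet-G (TMG) or in its solvent DMSO (control), undifferentiated cells included. TMG inhibits O-GlcNAcase (OGA), the enzyme that takes the sugar O-GlcNAc off proteins, and EZH2 protein is one of the proteins that carry this sugar. Each of the 8 groups had 2 libraries, which the study calls biological replicates. The treatment tags of 8 libraries, 2 at each stage, name the other arm than their titles do: the tags give every first replicate as control and every second as TMG. The titles were followed, since the descriptions and the column names of the count table go with them, and all TMG results rest on this. Library totals ran from 10334908 to 19836878 estimated counts. Levels are given as CPM on TMM-scaled library sizes, and changes are log2 fold changes with their standard error (SE). Adjusted p-values come from the quasi-likelihood F-test of edgeR, adjusted over all genes tested by the method of Benjamini and Hochberg.

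The libraries carried the stage markers with exceptions. The summed CPM of 5 stem cell markers fell from 2913 to 3414 on D0 to 3.15 or less on D70, and that of 10 cycling markers fell from 2127 to 2331 on D0 to 247 to 514 on D70. Of the progenitor markers, SOX1 was at 0.376 CPM or below in every library. VIM was between 166 and 234 CPM on D0 and between 1612 and 3839 on D70. NES was between 204 and 328 CPM on D0, 286 and 464 on D12, and 71 and 181 on D70. FABP7 was highest on D0, at 21.8 CPM in the second control library. HES5 was at 2.24 CPM in the second TMG library of D12, against 32 to 102 in the others of D12. PAX6 was between 246 and 587 CPM from D12 on, except for 2.50 CPM in the second TMG library of D70. That library, the second control library of D70 and the second TMG library of D30 stood apart by the summed CPM of 6 mesenchymal markers. The sum was 58960, 45160 and 29440 in them, against 3833 to 7589 in the other libraries of D30 and D70. PDGFRB, among the 6, ran the other way on D70. It had 225 CPM in the second control library against 259 in the first, and 149 in the second TMG library against 164 in the first. The 6 pigment epithelium and choroid plexus markers summed to 10280 and 1093 CPM in the control and 3246 and 49.5 in the TMG libraries of D70, with TTR at 9812 CPM in the first control library. Between these control libraries PMEL (107 and 598 CPM) and TYR (11.4 and 98.7) ran against the sum. MITF, CLIC6 and AQP1 were higher in the first control library, as TTR was. The 6 neuron markers summed to 1151 and 562 in control and 1179 and 219 in TMG on D70, and the last of these lies below all libraries of D0 (273 to 304). The part of this mixture in the D70 changes was not tested.

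EZH2 (chr7:148504349-148581413 in GRCh37, minus strand) had a lower mean at each later stage in both arms, and the fall since D0 passed edgeR's test from D30 on, while DESeq2 called it from D12 on in TMG cells. Its control libraries had 77.9 and 86.0 CPM on D0, 60.3 and 58.0 by D12, 35.6 and 40.6 at D30 and, last, 29.6 and 30.9 on D70. The TMG libraries had 97.6 and 87.1, 52.7 and 70.4, 42.8 and 48.7, and 41.6 and 30.6 CPM. All 4 libraries of D0 lay above all 12 later ones. In control cells the change since D0 was -0.47 (SE 0.19) on D12 (adjusted p = 0.12), -1.10 (SE 0.20) on D30 (adjusted p = 0.00226) and -1.44 (SE 0.20) on D70 (adjusted p = 0.000587 by edgeR). In TMG cells it was -0.59 on D12 (adjusted p = 0.0617 by edgeR and 0.0236 by DESeq2), -1.01 on D30 (adjusted p = 0.004) and -1.35 on D70 (adjusted p = 0.000846). The mean CPM of EZH2 on D70 was 0.369 times that of D0 in control cells and 0.391 times in TMG cells. The summed CPM of the 10 cycling markers also fell, with control means of 2163, 945, 319 and 304 in order of stage. Singly, PCNA, MCM2, MCM5 and RRM2 were higher in both control libraries of D70 than in both of D30. TOP2A and AURKB were lower in both, and MKI67, CCNB1, CDK1 and BUB1 overlapped. The part of the cycling markers in the EZH2 result was not tested. In bulk RNA fewer cells that express a gene and less RNA per cell cannot be told apart.

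EZH1 (chr17:40852293-40897067, minus strand), the other methyltransferase, passed the test between no stages. The control libraries had 47.4 and 49.0 CPM on D0, 51.8 and 57.2 at D12, 45.6 and 48.4 at D30, and 50.4 and 45.9 on D70, and the TMG libraries had 42.4 and 45.1, 49.1 and 52.6, 39.3 and 38.6, and 41.4 and 40.4. All 16 values lie between 38.6 and 57.2 CPM. This held in both arms at a false discovery rate of 5%, and the change from D0 to D70 in control cells was -0.00 (95% interval -0.30 to 0.30).

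The upstream sequences of EZH2 and EZH1 are shown because these paralogs encode the same activity and took different courses, and those of JARID2 and BMI1 because these genes changed most. Each is the 250 bases before the annotated transcription start in GRCh37, written along the gene's own strand. EZH2 is at chr7:148581384-148581633 and EZH1 at chr17:40897059-40897308, both on the minus strand, and JARID2 is at chr6:15246050-15246299 and BMI1 at chr10:22609778-22610027, both on the plus strand. Capitals mark the words CCAAT and, for E2F, TTTCCCGC, TTTCGCGC, TTTGCCGC and TTTGGCGC, on either strand.
EZH2: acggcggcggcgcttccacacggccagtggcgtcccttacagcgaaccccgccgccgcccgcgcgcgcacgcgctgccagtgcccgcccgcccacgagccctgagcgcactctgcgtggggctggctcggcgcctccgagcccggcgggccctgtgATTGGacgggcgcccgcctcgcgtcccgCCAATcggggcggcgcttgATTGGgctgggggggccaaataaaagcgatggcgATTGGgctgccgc
EZH1: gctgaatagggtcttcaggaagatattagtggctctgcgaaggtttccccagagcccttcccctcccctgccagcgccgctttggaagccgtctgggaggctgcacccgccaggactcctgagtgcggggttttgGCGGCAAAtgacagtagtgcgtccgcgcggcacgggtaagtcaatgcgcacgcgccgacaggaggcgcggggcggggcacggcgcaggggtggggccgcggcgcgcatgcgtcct
JARID2: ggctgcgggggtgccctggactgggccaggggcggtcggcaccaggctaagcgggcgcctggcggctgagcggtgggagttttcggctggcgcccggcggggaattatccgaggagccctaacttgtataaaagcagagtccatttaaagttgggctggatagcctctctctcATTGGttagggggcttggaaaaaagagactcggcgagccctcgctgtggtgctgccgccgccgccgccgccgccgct
BMI1: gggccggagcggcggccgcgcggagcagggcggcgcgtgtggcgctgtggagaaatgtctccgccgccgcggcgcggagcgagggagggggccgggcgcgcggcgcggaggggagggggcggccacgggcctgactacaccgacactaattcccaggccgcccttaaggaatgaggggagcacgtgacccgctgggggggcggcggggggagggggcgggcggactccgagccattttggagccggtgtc

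The window searched ran from 250 bases before to 50 bases after the start. EZH2 held CCAAT at 4 places, 94, 66, 47 and 13 bases before the start, and 1.25% of 19818 promoters of protein-coding genes held 4 or more. It also held TTTGGCGC just after the start, beyond the stretch shown. EZH1 held no CCAAT and held TTTGCCGC 115 bases before the start. JARID2 held CCAAT once, 77 bases before the start, and BMI1 held none of the words. Over the 10 genes, 6 held CCAAT, against 36% of all promoters, and 5 (EZH2, EZH1, SUZ12, MTF2 and PHF19) held an E2F word, against 4.38%. A word in a window is a description of sequence and not a binding site, and genes with and without an E2F word were found both among those that changed and among those that did not.

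**Figure D1:**
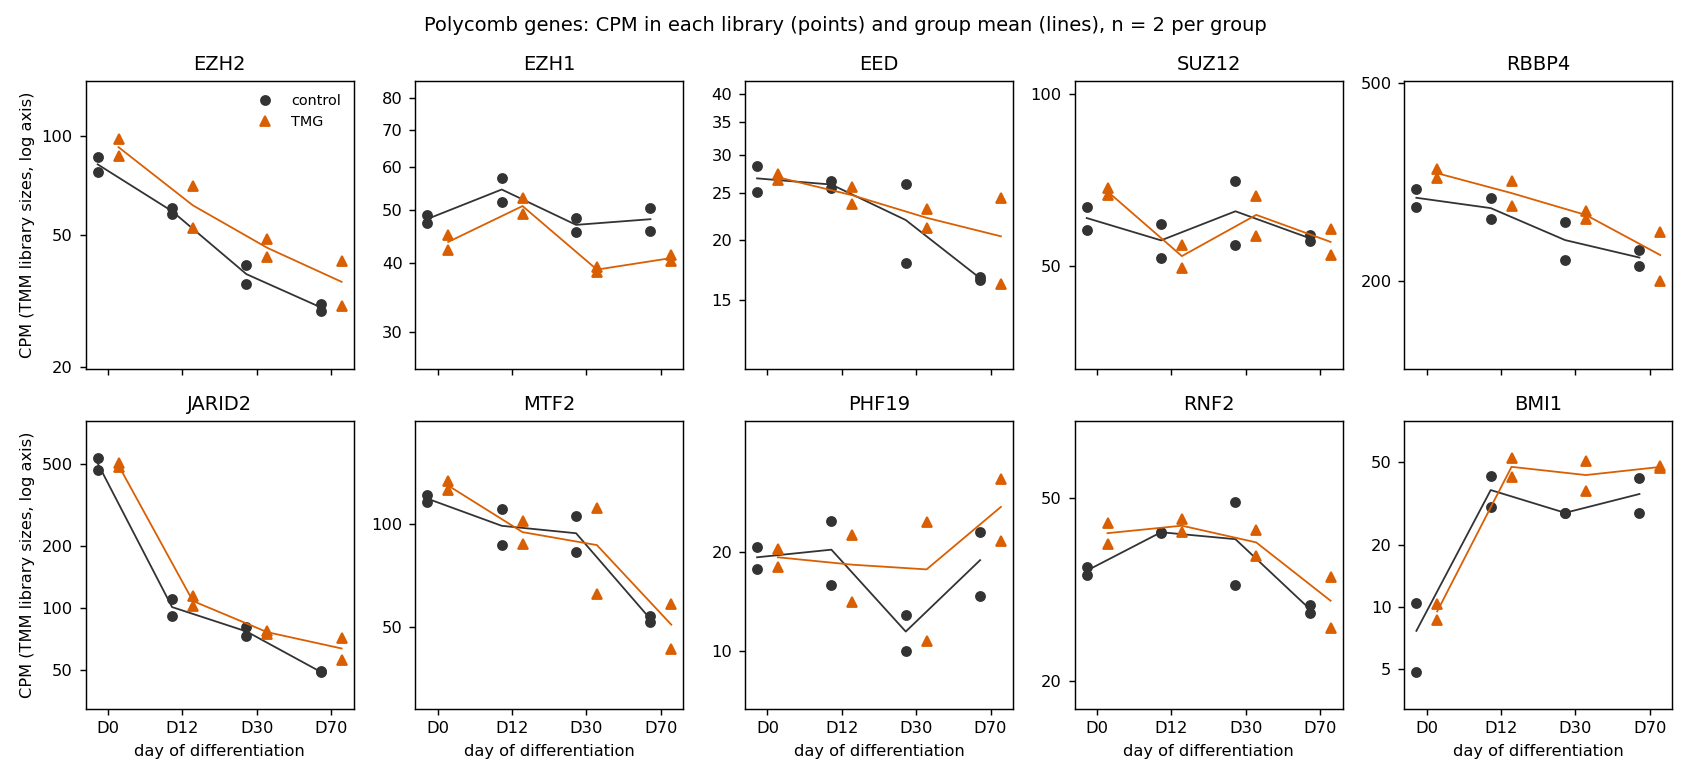
CPM of the 10 genes (y axis, logarithmic and scaled for each gene) on the 4 days of collection (x axis), with 1 point per library and lines through the means of 2 libraries, control in black circles and TMG in orange triangles. EZH2 falls from between 77.9 and 97.6 CPM on D0 to between 29.6 and 41.6 on D70 and JARID2 from between 468 and 535 to between 48.8 and 71.5, BMI1 rises from 10.5 CPM or less, and EZH1 and SUZ12 stay within 38.6 to 57.2 and 49.5 to 70.3 CPM.

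Among the core subunits, SUZ12 passed the test between no stages and the calls of EED and RBBP4 by D70 were near the threshold and depended on the tool or on single libraries. SUZ12 (chr17:30264026-30328057), a scaffold of PRC2, had 63.5 and 57.8 CPM in the control libraries on D0, 59.3 and 51.5 at D12, 70.3 and 54.4 at D30 and 55.2 and 56.6 on D70. In TMG, SUZ12 had 68.4 and 66.6, 54.5 and 49.5, 66.3 and 56.5, and 58.0 and 52.2. All 16 values lie between 49.5 and 70.3 CPM, and the stages overlap. The count table lists a same-named copy, SUZ12P1, with 10236 counts over all libraries, equal to 72.5% of those given to SUZ12, so the split of reads between the copies bears on this level. With the copies added, the change from D0 to D30 in control cells moved from 0.04 to -0.30 and still did not pass (adjusted p = 0.153 by edgeR). The D0 libraries then had 112 to 121 CPM, above all libraries of D30 (83.6 to 104) and D70 (83.3 to 93.1).

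EED (chr11:85912254-85989855), which binds the trimethylated mark, had 25.1 and 28.4 CPM in the control libraries of D0, 25.6 and 26.4 at D12, 26.0 and 17.9 at D30, and 16.5 and 16.7 on D70. In TMG, EED had 27.3 and 26.5, 23.7 and 25.7, 21.2 and 23.2, and 16.2 and 24.4. The TMG libraries of D70 lay on both sides of those of D30. The fall in control cells was -0.69 (SE 0.23, adjusted p = 0.0445 by edgeR, or 0.0508 with a replicate block), just inside the threshold. It left it in 12 of the 16 fits without 1 library, in which the change ran from -0.74 to -0.60 and the adjusted p from 0.0223 to 0.18. RBBP4 (chr1:33116743-33151812), a histone-binding subunit that other chromatin complexes also use, had the highest level of the core subunits. It had 306 and 282 CPM on D0, 266 and 294 at D12, 263 and 221 at D30, and 215 and 231 on D70 in control cells (change to D70 -0.40, SE 0.17, adjusted p = 0.0914 by edgeR, and -0.38, adjusted p = 0.048 by DESeq2), and 337 and 322, 283 and 318, 277 and 267, and 251 and 200 in TMG cells (-0.55, SE 0.17, adjusted p = 0.0311 by edgeR). The call in TMG cells was lost without the second TMG library of D70, where the change was -0.39 (adjusted p = 0.172), and also without either TMG library of D0, and ran from -0.73 to -0.39 over the 16 fits.

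The accessory subunits took 3 different courses. JARID2 (chr6:15246300-15522273), a cofactor that recruits PRC2 and is itself known for high levels in pluripotent cells, changed most of all 10 genes. Its control libraries had 535 and 468 CPM on D0, 91.5 and 111 at D12, 73.0 and 81.0 at D30, and 48.8 and 49.3 on D70. The TMG libraries had 501 and 480, 102 and 114, 75.2 and 77.6, and 55.9 and 71.5. JARID2 thus lost most of its RNA before D12, and every later library lay below every D0 library. The change since D0 in control cells was -2.31 (SE 0.18) on D12, -2.70 (SE 0.18) on D30 and -3.35 (SE 0.18) on D70, with adjusted p-values of 0.000113, 3.84e-05 and 1.16e-05. The mean of D0 was 10.2 times that of D70 in control cells and 7.70 times in TMG cells. It went on falling after D12, with a change to D70 of -1.04 (SE 0.17, adjusted p = 0.00562) in control cells and -0.76 (SE 0.17, adjusted p = 0.0308) in TMG cells. The latter call was lost in 5 of 16 fits without 1 library, all of them without a TMG library of D0, D12 or D70 (-0.95 to -0.61 over the 16 fits).

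MTF2 (chr1:93544792-93604636), a Polycomb-like protein that binds unmethylated CpG DNA, passed no test against D0 before D70 and was lower on D70. The control libraries had 116 and 121 CPM on D0, 111 and 86.7 at D12, 105 and 82.6 at D30, and 51.7 and 53.6 on D70. The TMG libraries had 133 and 126, 102 and 87.5, 111 and 62.2, and 58.2 and 43.2. On D70 all 4 libraries lay below all libraries of the other stages. The change from D0 to D70 was -1.17 (SE 0.26, adjusted p = 0.00809) in control cells and -1.35 (SE 0.26, adjusted p = 0.0041 by edgeR) in TMG cells, and it was called in all 16 fits without 1 library in each arm. From D12 to D70 in control cells it was -0.91 (adjusted p = 0.0494), a call that 12 of 16 such fits lost (-1.07 to -0.73).

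PHF19 (chr9:123617929-123657174, minus strand), the other Polycomb-like protein here, had 107 to 503 counts per library and replicates that differed widely in several groups. Its control libraries had 17.8 and 20.7 CPM on D0, 24.7 and 15.9 at D12, 10.1 and 12.9 at D30, and 14.7 and 23.0 on D70, and the TMG libraries had 18.0 and 20.5, 14.1 and 22.5, 10.8 and 24.6, and 21.6 and 33.1. No pair of stages passed the test. On D30 and D70, within each group whose replicates differed in mesenchymal markers, the library with more of them had the higher PHF19. The TMG library of D30 with 29440 CPM of these markers had 24.6 CPM of PHF19 and 62.2 of MTF2, and its replicate had 10.8 and 111. The part of these markers' cells in the PHF19 values was not tested.

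Of the PRC1 genes, BMI1 rose and RNF2 passed the test between no stages. BMI1 (chr10:22610028-22620413), known for keeping stem cells of several adult tissues dividing, was the only 1 of the 10 that rose. Its control libraries had 4.82 and 10.5 CPM on D0, 30.4 and 43.1 at D12, 28.5 and 28.6 at D30, and 28.4 and 41.9 on D70. The TMG libraries had 10.4 and 8.66, 42.4 and 52.8, 36.2 and 50.6, and 48.2 and 46.9. Every library from D12 on lay above every D0 library. The rise since D0 in control cells was 2.27 (SE 0.36, adjusted p = 0.00306) on D12, 1.90 (SE 0.35, adjusted p = 0.00289) on D30 and 2.20 (SE 0.36, adjusted p = 0.00143) on D70, and in TMG cells it was 2.32, 2.19 and 2.32. After D12 no pair of stages passed for BMI1. The table also lists the readthrough gene COMMD3-BMI1, with 423 counts over all libraries or 5.66% of those of BMI1. The 4 D0 libraries held 78 to 168 BMI1 counts, and without 1 library the rise in control cells ran from 1.84 to 2.93 on D12, 1.49 to 2.56 on D30 and 1.77 to 2.86 on D70, called in every fit. Both ends came from leaving out a control library of D0. RNF2 (chr1:185014658-185071735) had 34.1 and 35.5 CPM on D0, 42.4 and 42.0 at D12, 49.1 and 32.5 at D30, and 29.3 and 28.2 on D70 in control cells. TMG libraries had 44.2 and 39.8, 45.0 and 42.2, 42.7 and 37.5, and 33.7 and 26.2. The change of RNF2 from D0 to D70 was -0.28 (SE 0.21) in control and -0.49 (SE 0.21, adjusted p = 0.0966) in TMG cells.

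Counted over the 10 genes, the control cells gave 2 called on D12 against D0 (JARID2 and BMI1), where 16.7% of all genes tested were called. They gave 3 on D30 (EZH2 added), where 30.6% of all genes were called, and 5 on D70 (EED and MTF2 added; 6 by DESeq2, with RBBP4), where 29.8% were. The counts of D12 and D30 are near this background, so they say nothing particular of the 10 genes. From D12 to D70, 3 genes were called in control cells (EZH2, JARID2 and MTF2), all lower, where 11.1% of all genes were called and 4.66% were called lower. The EZH2 call there was lost in 3 of 16 fits without 1 library (change -1.01 to -0.94). From D12 to D30 and from D30 to D70, where 3.6% and 0.384% of all genes were called, edgeR called 0 of the 10, with 2 and 3 at an unadjusted p under 0.05 (as 4957 and 4468 of all 24249 genes were), and DESeq2 called 1 and 2 (background 11.9% and 8.35%). In TMG cells edgeR called 2, 3 and 5 of the 10 against D0 (background 16.4%, 27.7% and 29.0%). The 5 of D70 had RBBP4 in place of EED. From D12 to D70 it called EZH2 and JARID2 (background 5.15%), and 14 of 16 fits without 1 library lost the EZH2 call (-0.77, adjusted p = 0.0473, and -1.02 to -0.55 in these fits). From D12 to D30 and from D30 to D70 (background 0.511% and 0.00825%) edgeR called 0, with 2 and 1 at an unadjusted p under 0.05 (3641 and 2658 of all genes), and DESeq2 also called 0 (background 6.14% and 1.71%). The median change of the 10 genes from D0 to D70 was -0.34 in control and -0.45 in TMG cells, and that of all genes tested was 0.03 and 0.01.

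**Figure D2:**
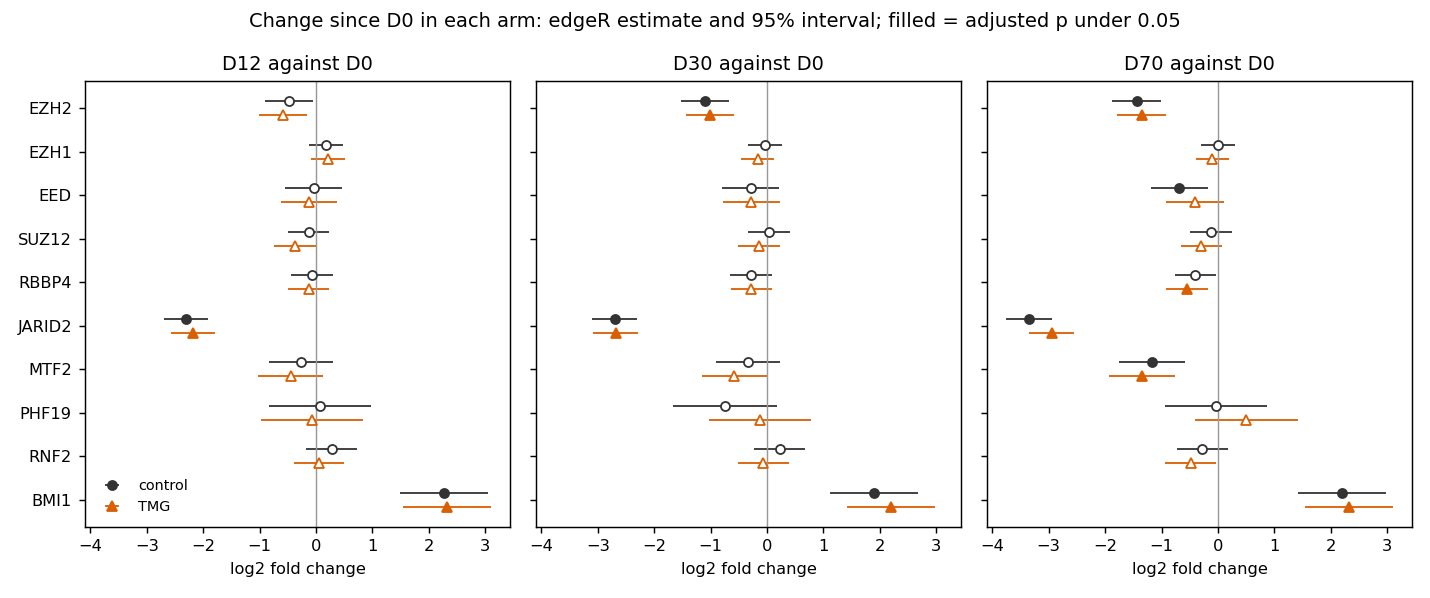
Log2 fold change against D0 (x axis) of each of the 10 genes (y axis) on D12, D30 and D70, with 95% intervals from edgeR, control in black circles and TMG in orange triangles, filled where the adjusted p is under 0.05. JARID2 reaches -3.35 and BMI1 2.20 on D70 in control cells, EZH2 and MTF2 lie between them and 0, and EZH1, SUZ12, PHF19 and RNF2 have no filled point.

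Set against transcript length, the order of the genes changed between D0 and D70. On the scale of CPM per kilobase of the canonical transcript, the control cells of D0 had 83.5 ± 7.95 (SD, n = 2) for JARID2, 37.3 ± 2.10 for RBBP4, 30.9 ± 2.16 for EZH2 and 29.0 ± 0.879 for MTF2. Next came SUZ12 at 13.5 ± 0.883, EED at 12.8 ± 1.10, EZH1 at 10.4 ± 0.239 and RNF2 at 10.2 ± 0.295, and last PHF19 at 4.64 ± 0.496 and BMI1 at 2.16 ± 1.13. Within this order, EZH2 and MTF2, SUZ12 and EED, and EZH1 and RNF2 overlapped within 1 SD. On D70 RBBP4 led with 28.3 ± 1.46, and JARID2 had dropped from the first to the eighth place with 8.17 ± 0.0636. This place is not exact, since JARID2 overlapped RNF2 (8.44 ± 0.238) and BMI1 within 1 SD. EZH2 (11.4 ± 0.355), EZH1 (10.4 ± 0.691) and BMI1 (9.94 ± 2.70) were then neighbours in the order and overlapped within 1 SD. Transcript use can change with stage, and a level per kilobase takes 1 transcript per gene.

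Ratios within a library do not depend on scaling between libraries, so related subunits were compared in this way, as log2 ratios of CPM with a prior count of 2. EZH1/EZH2 rose with differentiation. In control libraries it was -0.71 and -0.81 on D0, -0.22 and -0.02 at D12, 0.35 and 0.25 at D30, and 0.77 and 0.57 on D70, so that more reads came from EZH2 on D0 and more from EZH1 on D30 and D70. These ratios take no account of transcript length. Per kilobase, the control mean of EZH2 was above that of EZH1 on D30 (14.36 against 10.15) and on D70 (11.39 against 10.39, overlapping within 1 SD). In TMG libraries the log2 ratio was -1.20 and -0.95, -0.10 and -0.42, -0.12 and -0.34, and -0.01 and 0.40. Over both arms the means were -0.92 ± 0.21 (SD, n = 4), -0.19 ± 0.17, 0.04 ± 0.32 and 0.43 ± 0.33. Here and below, n = 4 pools the control and TMG libraries of a stage. Such SDs and stage tests thus also take in the difference between arms. D12, D30 and D70 exceeded D0 by 0.73, 0.96 and 1.35, each with no overlap (exact two-sided permutation test of 4 against 4 libraries, p = 0.0286, the smallest this design allows, adjusted p = 0.0381 over 12 such tests on 4 ratios). Without the first TMG library of D0 the D30 value was 0.86 and did not pass (adjusted p = 0.0857 by the exact permutation test).

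The EZH1/EZH2 ratio was also lower in TMG than in control cells. The difference, averaged over stages, was -0.36 (exact two-sided permutation test with arms exchanged within each stage, 1296 arrangements, p = 0.00309, adjusted p = 0.0123 over 4 ratios). The ratios were chosen with earlier results of these data known, which their p-values do not take into account. Both TMG libraries lay below both control libraries on D0, D30 and D70, and on D12 the arms overlapped. The difference ran from -0.42 to -0.31 when each library was left out, with adjusted p-values from 0.00617 to 0.0432. The summed CPM of the cycling markers was higher in both TMG libraries than in both controls on D0 and D30. On D12 and D70 the sums overlapped between arms. Singly, MKI67, RRM2 and AURKB overlapped between arms on D0 and PCNA did on D30, and the rest were higher in TMG on those days. All 10 averaged 1 CPM or more in every group. Their summed CPM was 2331 and 2321 in TMG against 2199 and 2127 in control on D0, 742 and 1217 against 1004 and 886 on D12, 399 and 786 against 330 and 308 on D30, and 514 and 288 against 361 and 247 on D70. Their part in the ratio was not tested. Neither EZH1 nor EZH2 passed the test across all genes for TMG, as given next.

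The other 3 ratios passed the test between some stages, and between arms none of them passed it with arms exchanged within each stage. RING1/RNF2, the ratio of the 2 PRC1 ligases, was -0.72 ± 0.23 (SD, n = 4) on D0, 0.18 ± 0.08 at D12, 0.07 ± 0.51 at D30 and 0.53 ± 0.26 on D70. All 3 later stages exceeded D0 with no overlap of libraries (adjusted p = 0.0381 each by the exact permutation test). The D30 call was lost without the first control library or either TMG library of D0, or without the second control library of D30 (0.55 to 0.91 over the 16 sets, adjusted p up to 0.114). RING1 itself was between 21.1 and 26.4 CPM on D0 and 33.6 and 55.4 on D70, and rose by 0.95 (SE 0.25, adjusted p = 0.0172 by edgeR) in control cells. RBBP7/RBBP4, the ratio of the histone-binding subunits, fell from -0.70 ± 0.06 (SD, n = 4) on D0 to -1.17 ± 0.05 on D12 and -1.34 ± 0.15 on D30 (adjusted p = 0.0381 each by the exact permutation test) and was -0.77 ± 0.25 on D70 (adjusted p = 0.779). PHF19/MTF2 was -2.68 ± 0.14 (SD, n = 4) on D0 and -1.21 ± 0.60 on D70 (adjusted p = 0.0381 by the exact permutation test), with adjusted p-values of 0.206 on D12 and 1.0 on D30. TMG minus control was -0.24 for RING1/RNF2 (adjusted p = 0.238, but 0.0312 when arms were exchanged only between libraries of 1 replicate number, and -0.38 with adjusted p = 0.0309 without the first control library of D30), 0.02 for RBBP7/RBBP4 (adjusted p = 0.83) and 0.26 for PHF19/MTF2 (adjusted p = 0.576 by the exact permutation test).

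**Figure D3:**
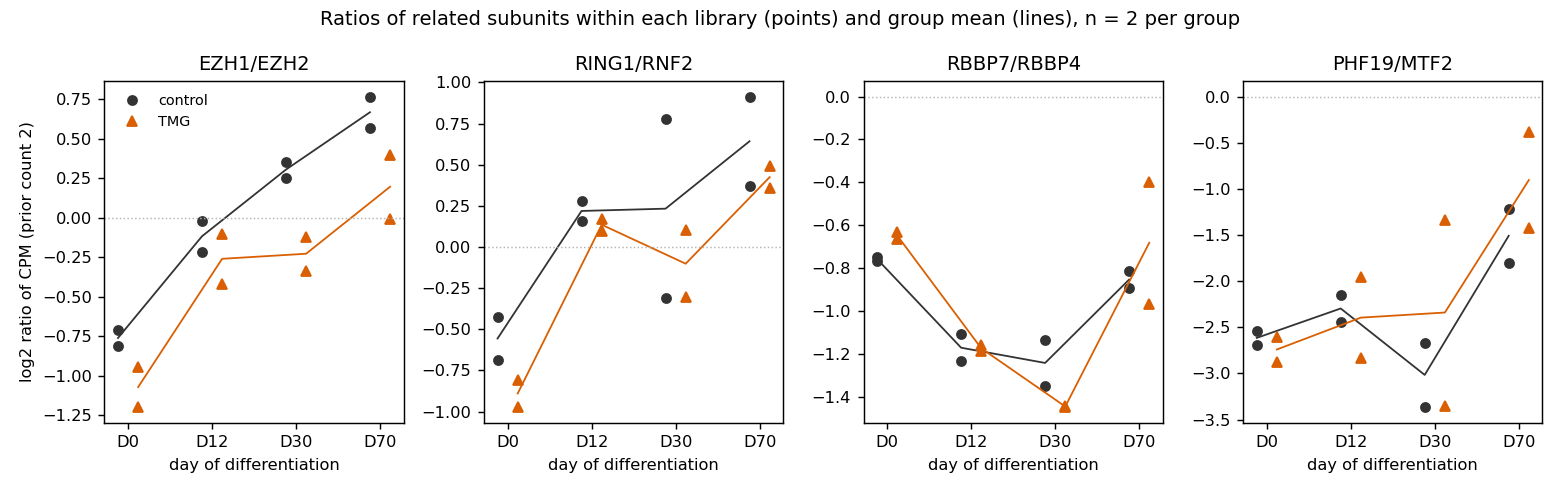
Log2 ratio of CPM of 4 pairs of related subunits (y axis, a separate scale for each pair) on the 4 days of collection (x axis), with 1 point per library and lines through the means of 2 libraries, control in black circles and TMG in orange triangles. EZH1/EZH2 rises from a mean of -0.92 on D0 to 0.43 on D70, with the TMG points below the control points on D0, D30 and D70.

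Between TMG and control none of the 10 genes passed the test across all genes. At each of the 4 stages edgeR called 0 of the 10 genes, where 0.0% of all genes were called. At an unadjusted p under 0.05 there were 0 of the 10 on D0, D12 and D30, where 306, 601 and 2908 of all 24249 genes were, and 1 (JARID2) on D70, where 5.49% of all genes were. DESeq2 also called 0 of the 10 at each stage, with 0.0116%, 0.0514%, 3.0% and 0.218% of all genes called in order of stage. Averaged over the 4 stages edgeR again called 0 of the 10 (background 0.00412%), with 2 (EZH1 and BMI1) at an unadjusted p under 0.05 (background 11.8%), and DESeq2 called 0 (background 2.2%). The median TMG effect of the 10 was 0.14, -0.01, 0.00 and 0.16 on D0, D12, D30 and D70, and the median over all genes was -0.00, 0.00, 0.01 and -0.01.

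EZH1 was lower in both TMG libraries than in both controls on D0, D30 and D70. Of all genes, 4.39% were lower in this way at 3 or more stages. The effect was -0.14, -0.10, -0.27 and -0.23 at the 4 stages, and -0.19 (95% interval -0.34 to -0.04, unadjusted p = 0.0194, adjusted p = 0.328 by edgeR) on average. EZH2 was higher without overlap on D0 and D30, by 0.17 and 0.26, and by 0.19 (95% interval -0.02 to 0.40, adjusted p = 0.473) on average. BMI1 was higher without overlap on D30 and D70, by 0.61 and 0.44, and by 0.43 (95% interval 0.06 to 0.81, unadjusted p = 0.0272, adjusted p = 0.356 by edgeR) on average. With single libraries left out, the BMI1 effect ran from 0.35 to 0.83 on D30 and from 0.18 to 0.75 on D70. JARID2 was higher without overlap on D70, by 0.38 (95% interval 0.00 to 0.75, unadjusted p = 0.0481, adjusted p = 0.903 by edgeR). The higher of its TMG libraries there was the one with the most mesenchymal markers, and without that library the effect was 0.19. RBBP4 did not overlap on D0 and D30, and SUZ12, MTF2 and RNF2 did not on D0, each higher in TMG. These values did not pass the test, and both TMG libraries were the higher ones for 19.7% of all genes on D0, 23.1% on D30 and 9.77% on D70.

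For the other genes the intervals show which sizes the data leave room for. The mean TMG effect was 0.06 (95% interval -0.19 to 0.31) for EED, 0.01 (-0.18 to 0.19) for SUZ12, 0.11 (-0.07 to 0.29) for RBBP4, -0.03 (-0.31 to 0.26) for MTF2, 0.09 (-0.14 to 0.31) for RNF2 and 0.25 (-0.20 to 0.71) for PHF19. Whether the TMG effect differed between stages was tested directly. For these differences edgeR called 0 of the 10 genes and 0.0% of all genes, with 0 of the 10 at an unadjusted p under 0.05, where 260 to 977 of all genes were, and DESeq2 called 0 of the 10 and 3 to 46 of all genes.

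**Figure D4:**
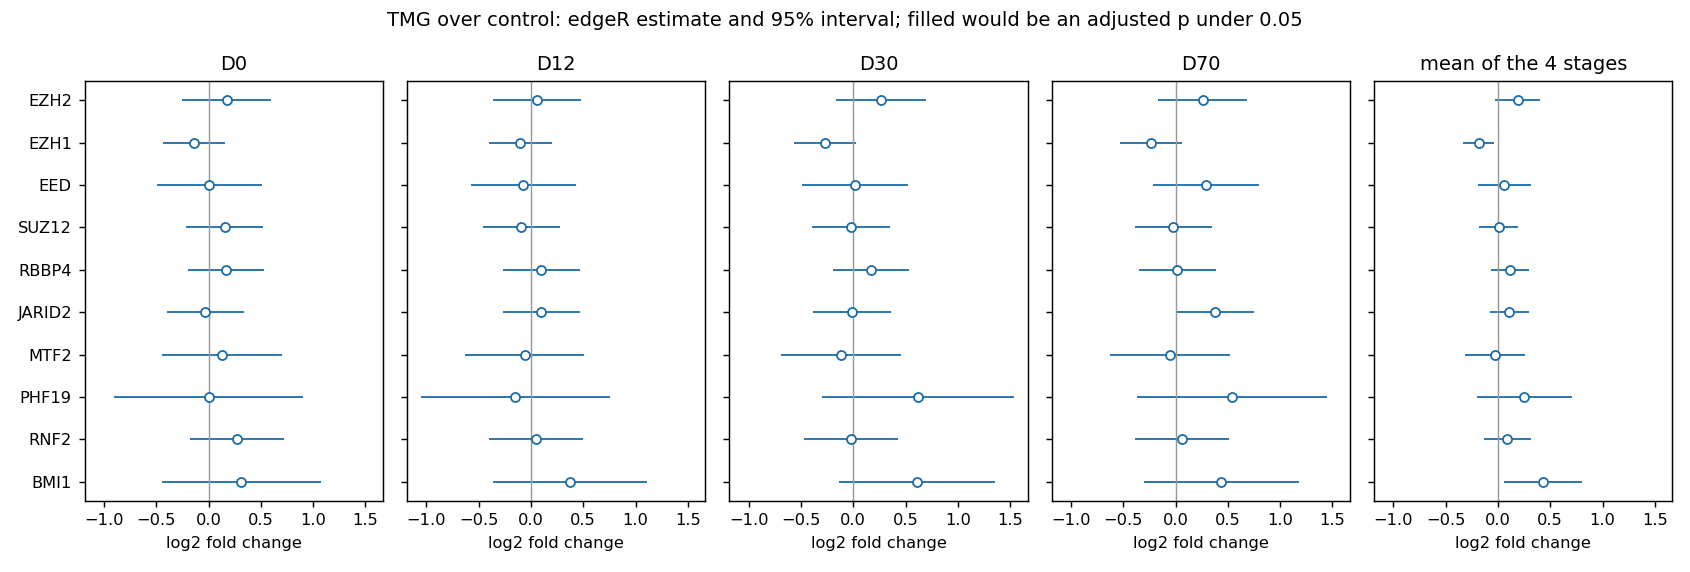
Log2 fold change of TMG over control (x axis) of each of the 10 genes (y axis) at each stage and averaged over the 4 stages, with 95% intervals from edgeR. No gene has an adjusted p under 0.05, and in the averaged panel the interval lies below 0 for EZH1 (-0.34 to -0.04) and above 0 for BMI1 (0.06 to 0.81).

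The genes whose 8 group means of log2 CPM followed those of EZH2 most closely were CENPE (Pearson's r = 0.998), ANLN (0.998), KPNA2 (0.998), NCAPD2 (0.997) and CCNB1 (0.997), of which CCNB1 is also among the cycling markers. For EZH1 they were PPP4R2P2 (r = 0.974), KDM2B-DT (0.972), DUTP7 (0.972), SMIM22 (0.968) and ACAD10 (0.963). These correlations are over 8 group means that share their stages and libraries, and are a description. With Spearman's rho over the 16 libraries, each list shared 1 of its 5 genes with the list above.

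The remaining Polycomb genes and their counterparts were taken from lists of other PRC2 genes, other PRC1 genes, enzymes that remove the marks, and Trithorax genes, most of whose proteins belong to complexes that methylate histone H3 at lysine 4. With the O-GlcNAc enzymes, 52 of 55 listed genes were tested. From D0 to D70 in control cells, where 29.8% of all genes were called, 1 of 5 other PRC2 genes was higher and 1 lower (LCOR and RBBP7). Of 27 other PRC1 genes, 9 were higher and 5 lower, with a median of 0.35. Of 8 genes for removing marks, 3 were higher and 2 lower, and of 10 Trithorax genes, 2 were higher (KMT2C and ASH1L) and 5 lower, with a median of -0.51. The median over all genes was 0.03.

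Among these other listed genes, the largest falls were within PRC1. PHC1, a polyhomeotic subunit of PRC1, had 1228 and 989 CPM in the control libraries of D0, 74.5 and 87.3 on D12 and 129 and 96.3 on D70 (change to D70 -3.30, SE 0.27, adjusted p = 5.66e-05 by edgeR). CBX2, which reads the PRC2 mark for PRC1, had 151 and 170 CPM on D0 and still 125 and 117 on D12, and then 40.2 and 51.2 on D30 and 18.1 and 24.8 on D70 (-2.90, adjusted p = 0.000112). SCML2, another PRC1 partner, had 26.1 and 28.1 on D0 and 5.53 and 11.9 on D70 (-1.64, adjusted p = 0.00411). PHC1 thus dropped before D12, as JARID2 did, while CBX2 dropped after it.

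The largest rises among the other listed genes were those of ASXL3, PCGF5 and YAF2. ASXL3, a cofactor of the enzyme that removes ubiquitin from histone H2A, went from 4.14 and 12.8 CPM on D0 to 102 and 46.7 on D70 (3.14, SE 0.51, adjusted p = 0.00157 by edgeR). PCGF5, which like BMI1 is a PCGF protein, had 8.59 and 8.11 CPM on D0, 19.5 and 12.8 on D12 and 62.6 and 45.1 on D70 (2.69, SE 0.35, adjusted p = 0.000435). YAF2, a partner of RNF2 in PRC1 forms without CBX proteins, had 3.71 and 8.67 on D0, 31.1 and 29.6 on D12 and 22.8 and 27.9 on D70 (2.04, SE 0.34, adjusted p = 0.00163). YAF2 was near its final level by D12, as BMI1 was, and PCGF5 was not.

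**Figure D5:**
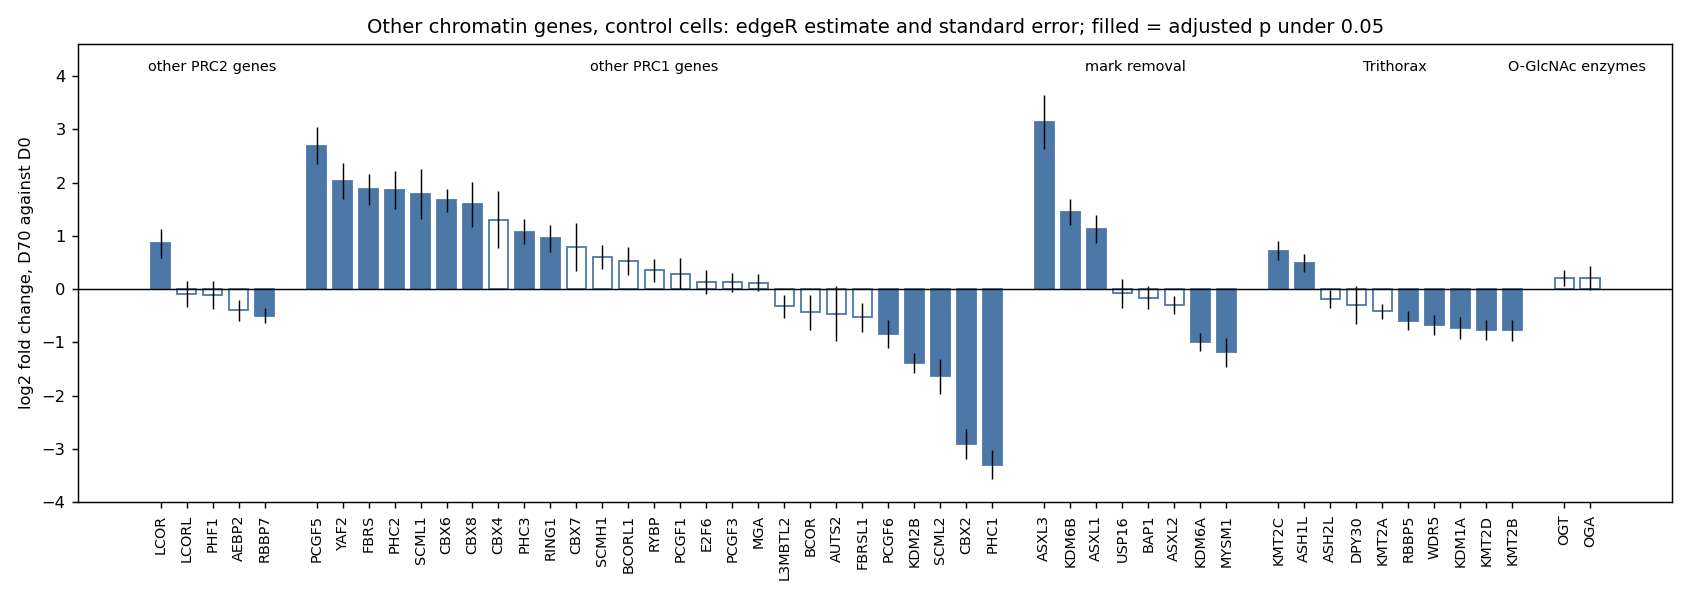
Log2 fold change from D0 to D70 in control cells (y axis) of 52 other Polycomb, mark-removing, Trithorax and O-GlcNAc genes (x axis, grouped by list), as the edgeR estimate with its standard error, filled where the adjusted p is under 0.05. The bars run from 3.14 for ASXL3 to -3.30 for PHC1, and the PRC1 list holds both large rises and large falls.

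Between TMG and control, edgeR called 0 of these 52 genes at every stage and on average, with 0, 0, 6 and 1 at an unadjusted p under 0.05 on D0, D12, D30 and D70 and 9 on average. Of all genes, 306, 601, 2908 and 1332 were at such a p on these days and 2872 on average. DESeq2 tested 53 and called 3 on D30 (CBX6, AUTS2 and OGT) and 2 on average (AUTS2 and OGT), where it called 3.0% and 2.2% of all genes, and 0 at the other stages. OGT, the enzyme that adds O-GlcNAc, was higher in both TMG libraries at all 4 stages, as 0.441% of all genes were. It had 403 and 424 CPM in control and 481 and 476 in TMG cells on D0, 490 and 479 against 635 and 582 on D12, 434 and 414 against 598 and 720 on D30, and 501 and 457 against 608 and 656 on D70. Its mean effect was 0.39 (SE 0.08, unadjusted p = 0.000342, adjusted p = 0.133 by edgeR). OGA, the target of TMG, was higher by 0.30 (SE 0.11, adjusted p = 0.338) on average.

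CBX6, a reader of the PRC2 mark, had 74.3 and 87.8 CPM in control and 117 and 179 in TMG cells on D30 (0.87, SE 0.21, adjusted p = 0.194 by edgeR). AUTS2, which belongs to PRC1 forms in the nervous system, had 35.1 and 62.8 CPM in control and 87.2 and 340 in TMG cells on D30 (2.13, SE 0.54, adjusted p = 0.209). For CBX6, AUTS2 and OGT alike, the higher of the TMG values of D30 was in the library with many mesenchymal markers. PHF1, a Polycomb-like protein beside MTF2 and PHF19, was lower by 0.43 on the log2 scale on average (-0.43, SE 0.13, adjusted p = 0.266 by edgeR). PHF1 had its lowest values of D30 (38.4 CPM) and D70 (23.9 CPM) in the TMG libraries with many such markers, whose part in these results was not tested. The others with the lowest unadjusted p at a stage were RBBP7 (0.27) and CBX7 (-0.77) on D0, BCOR (0.69) and ASH2L (0.29) on D12, KMT2D (0.34) on D70, and OGA on D0 and D70 (0.39 and 0.43), with unadjusted p-values between 0.0591 and 0.122.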

How the data were processed

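RNA was measured in 16 libraries of H9 cells, depleted of ribosomal RNA, with 2 libraries in each of 8 groups of stage and arm. Per the labels and the study's methods, the authors aligned reads to hg19 with Bowtie2 and deposited expected counts from RSEM 1.2.12, given as whole numbers, for 57736 Ensembl genes, of which 55501 carry a symbol. RSEM shares reads between near-identical copies, and whether strand was used is not given in the sources used here. Groups were taken from the titles, since the treatment tags of 8 libraries go against them.

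Counts were fitted with edgeR 4.0.16 (limma 3.58.1, R 4.3.3) by the quasi-likelihood F-test, with TMM library sizes, 1 mean per group and filterByExpr (minimum count 10, minimum total count 15), which left 24249 genes and 8 residual degrees of freedom. A gene was called at a false discovery rate of 5% over all genes tested. This test differs from that of the study, which used DESeq2, and DESeq2 1.42.0 was run as an alternative. The p-values measure the spread between these libraries. Ratios were tested by exact permutation of libraries, with a prior count of 2. Gene positions, transcript lengths and promoters came from the GRCh37 sequence and the lifted GENCODE annotation (Python 3.11.15, numpy 2.4.6, pandas 2.3.3, matplotlib 3.10.9). The fit was tested on simulated data.

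The 10 genes, the other lists and the ratios were chosen with earlier results of these data known. Named were all 10 genes, and of the other listed genes the 3 largest rises and 3 largest falls among those called from D0 to D70 in control cells, and in each TMG comparison those called or else the 3 with the lowest p. Genes most like EZH2 or EZH1 were the 5 with the highest Pearson's r over 8 group means. Alternatives were RLE normalization, no filter, a replicate block, copies added to their parent gene, DESeq2, 1 stage or arm alone, raw library totals, a prior count of 0.5 and each library left out.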

Additional observations from a re-analysis of the deposited data

How the results depend on the processing

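With 2 libraries a group, single libraries decided many of the small values. The falls of EZH2 and JARID2 to D30 and D70, the fall of MTF2 to D70 and the rise of BMI1 were called in every fit without 1 library and under every other alternative run. Among the 10 genes, the calls of EED to D70 in control cells, of RBBP4 to D70 in TMG cells, of MTF2 and EZH2 from D12 to D70 in control cells, and of EZH2 and JARID2 from D12 to D70 in TMG cells were lost under at least 1 alternative or left-out library. Among these genes, BMI1 had 78 to 168 counts on D0, and PHF19 had 107 in its lowest library. The cause of these shifts was not tested.

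DESeq2 called 1 of the 10 genes from D12 to D30 and 2 from D30 to D70 in control cells, where edgeR called 0. From D12 to D70 in TMG cells, where edgeR called 2 of the 10 and 1249 of all genes, 3 were called by DESeq2 (of all genes, 3037), 1 with RLE normalization (1295), and 0 without the filter (1179) or with the 8 TMG libraries alone (225). Without 1 library the count ran from 1 to 4 there in control cells (343 to 4219 of all genes) and from 0 to 2 in TMG cells (79 to 2918).

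Of values that passed no test, some turned sign. EZH1 from D0 to D30 in control cells was 0.01 with no filter. EED in TMG was -0.01 on D0 in a fit of that stage alone, and -0.02 on average without the D70 libraries, an alternative chosen after seeing the data. SUZ12 in TMG was 0.08 on D30 with copies added, and 0.01 on D70 both with RLE normalization and with DESeq2. With copies added, SUZ12 from D0 to D30 in control cells was -0.30 and RNF2 from D0 to D12 in TMG cells was -0.02.

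With single libraries left out, the TMG effect on D0 ran from -0.05 to 0.10 for EED, -0.12 to 0.10 for JARID2 and -0.11 to 0.98 for BMI1. On D12 it ran from -0.17 to 0.25 for EZH2, -0.19 to 0.01 for SUZ12, -0.04 to 0.25 for JARID2, -0.22 to 0.12 for MTF2 and -0.53 to 0.20 for PHF19. On D30 it ran from -0.23 to 0.31 for EED, -0.19 to 0.17 for SUZ12, -0.09 to 0.07 for JARID2, -0.59 to 0.24 for MTF2, -0.09 to 1.09 for PHF19 and -0.29 to 0.30 for RNF2. On D70 it ran from -0.03 to 0.55 for EED, -0.11 to 0.06 for SUZ12, -0.17 to 0.18 for RBBP4, -0.29 to 0.15 for MTF2 and -0.14 to 0.23 for RNF2. Averaged over stages it ran from -0.02 to 0.13 for EED, -0.04 to 0.05 for SUZ12 and -0.14 to 0.06 for MTF2. The averaged effect kept its sign but ran from 0.02 to 0.17 for RNF2, 0.07 to 0.37 for PHF19 and 0.07 to 0.15 for RBBP4.

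Likewise, changes since D0 in control cells ran from -0.10 to 0.05 for EED, -0.15 to 0.03 for RBBP4 and -0.25 to 0.36 for PHF19 on D12. They ran from -0.08 to 0.01 for EZH1, -0.15 to 0.21 for SUZ12 and -0.10 to 0.49 for RNF2 on D30, and from -0.38 to 0.25 for PHF19 on D70. In TMG cells they ran from -0.45 to 0.22 for PHF19 and -0.02 to 0.13 for RNF2 on D12, and from -0.84 to 0.35 and -0.17 to 0.02 on D30.

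Among ratios, EZH1/EZH2 on D30 ran from 0.85 to 1.08 and lost its call without 1 of the 16 libraries, and RING1/RNF2 on D30 ran from 0.55 to 0.91 and lost it without any of 4. RBBP7/RBBP4 on D70 ran from -0.19 to 0.00 and PHF19/MTF2 on D12 from 0.20 to 0.50, and each gained a call without 1 library, the second TMG library of D70 and the first of D12 (adjusted p = 0.0343 each by exact permutation). TMG minus control ran from -0.38 to -0.11 for RING1/RNF2, from -0.05 to 0.09 for RBBP7/RBBP4 and from 0.01 to 0.52 for PHF19/MTF2. The PCGF2/BMI1 ratio was not run.

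Replicate numbers were not taken as pairs, since D0 showed no such pattern: the correlation of the difference between replicates 1 and 2 in the 2 arms was 0.045 at D0, 0.367 at D12, 0.223 at D30 and 0.607 at D70. In the fit with a replicate block, 4 in place of 5 of the 10 genes were called from D0 to D70 in control cells. The call lost was that of EED (-0.68, adjusted p = 0.0508 by edgeR). The block also ended the EZH2 call from D12 to D70 in TMG cells (-0.76, adjusted p = 0.0538 by edgeR). With the block, RING1/RNF2 between arms (-0.24) had an adjusted p of 0.0312 by exact permutation.

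Over all genes, DESeq2 called 5, 11, 592 and 52 for TMG at the 4 stages, where edgeR called 0, and 488 on average, where edgeR called 1. In control cells it called 2454, 4550 and 1716 from D12 to D30, D12 to D70 and D30 to D70 (edgeR 874, 2691 and 93), and in TMG cells 1159, 3037 and 366 (edgeR 124, 1249 and 2). For differences of the TMG effect it called 3, 16, 24 and 46 (edgeR 0). Without the filter, edgeR called 1, 21 and 3 for TMG on D0, D30 and D70, 32 on average, 331 from D30 to D70 in control cells, 227 and 21 from D12 to D30 and D30 to D70 in TMG cells, and 1, 1, 3 and 5 for the differences. With 1 arm alone it called 572 and 143 from D12 to D30 and D30 to D70 in control cells, and 2270, 1, 225 and 0 from D0 to D12, D12 to D30, D12 to D70 and D30 to D70 in TMG cells. With the block it called 184 from D30 to D70 in control cells and 2 for TMG on average, and without the D70 libraries 26 on average. Raw library totals moved 28 of the 80 group means by over 1 SD.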
